A study of Mus musculus with 12 samples.

Results

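The V1 sector is the part of the vacuolar proton pump (V-ATPase) that lies in the cytoplasm and hydrolyses ATP, and it is described here through 9 of its genes: Atp6v1a, Atp6v1b2, Atp6v1c1, Atp6v1d, Atp6v1e1, Atp6v1f, Atp6v1g1, Atp6v1g2 and Atp6v1h. Every ATAC-seq peak whose nearest gene, as annotated in the deposited tables, is 1 of these 9 was taken, which gave 110 of 281974 peaks. Of these, 43 of 91770 belonged to the microglial table, 40 of 107627 to the NeuN+ table and 27 of 82577 to the Olig2+ table. ATAC-seq measures how open chromatin is by letting a transposase cut accessible DNA. Peaks within 1000 bp of the annotated transcription start site (TSS) are called start-site peaks and the others distal, and the strongest peak is that with the highest mean over the 4 libraries of a sort. A peak is called changed at an adjusted p under 0.05 in limma, fitted on log2(normalized tags + 1) over all peaks of a table with Benjamini-Hochberg adjustment. Normalized tags are reads in the peak per 10000000 reads of the library, as deposited.

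The 12 libraries came from forebrains of C57BL/6 mice at 4 months of age, 2 wild-type (WT) and 2 SgshKO in each of 3 sorts. SgshKO mice lack Sgsh, whose product, the enzyme N-sulfoglucosamine sulfohydrolase of the lysosome, is needed to break down heparan sulfate. The labels give neither the allele nor the sex of the mice, and do not say whether a library is 1 animal or a pool, so p-values measure the spread between libraries, which may be technical. Microglia were sorted as live cells by the surface proteins CD11b, CD45 (low) and CX3CR1. The NeuN+ (neuronal) and Olig2+ (oligodendrocyte lineage) nuclei were fixed lightly in formaldehyde before the sort and were gated as negative for PU.1. Because cells and fixed nuclei were prepared differently and each sort had its own table of peaks, levels across sorts are described and not tested.

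The proton pump acidifies lysosomes, endosomes and synaptic vesicles. In its V1 sector, the A and B subunits form the ring that binds and hydrolyses ATP, D and F form the central shaft that turns, and E and G form the outer stalks that hold the ring still. C and H sit at the joint with the membrane sector V0, where V1 can come off and be assembled again. Many genes of the pump are known targets of the transcription factors TFEB, TFE3 and MITF, which bind E-box sequences in lysosomal promoters.

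The libraries held 10771659 to 19555924 reads, of which 48.68 to 67.44% lay within peaks for microglia, 21.23 to 26.71% for NeuN+ nuclei and 30.92 to 31.84% for Olig2+ nuclei. In NeuN+ nuclei both WT libraries (26.71 and 25.93%) lay above both SgshKO libraries (21.54 and 21.23%). Start-site peaks were present for 9 of 10 microglial markers in microglia (not Aif1), 10 of 10 neuronal markers in NeuN+ nuclei and 10 of 10 oligodendrocyte markers in Olig2+ nuclei. Blood myeloid markers had a start-site peak for 1 of 6 genes in microglia and for none in either sort of nuclei. At the Sgsh start site the WT libraries had 229 and 192 tags for microglia, 34.6 and 22.6 for NeuN+ and 65.9 and 74.2 for Olig2+ nuclei. The SgshKO libraries had 364 and 253, 9.07 and 13.3, and 60.9 and 69.1 in that order. As the allele is not given, these values do not check the genotype.

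Promoter sequence from RefSeq (GRCm38.p6) was given for 5 of the 9 genes: Atp6v1a, Atp6v1d, Atp6v1e1, Atp6v1f and Atp6v1g2, the last with 2 windows. Each window runs from 250 bases before to 50 after a TSS. Of the motifs searched on both strands, the E-box CACGTG occurred in the Atp6v1a window only, within TCACGTGA, the core of the CLEAR element that TFEB binds. The GC box GGGCGG occurred in the windows of Atp6v1d, Atp6v1e1, Atp6v1f and Atp6v1g2, and CCAAT, on the opposite strand, in that of Atp6v1e1. The M-box TCATGTG occurred in none. Over all 32851 windows of the same length, 7.15% held the E-box, 0.974% the CLEAR core, 3.77% the M-box, 35.7% the GC box and 37.4% the CCAAT box. The E-box letters are part of the CLEAR core, so those shares overlap. Upstream stretches are printed for Atp6v1a, the gene with the E-box, and for Atp6v1f and Atp6v1g2, whose peaks there were called in microglia in opposite directions. Each runs 5′ to 3′ on the strand of its gene and ends at the base before the TSS, with the motifs in capitals.
Atp6v1a, chr16:44139260-44139509, minus strand: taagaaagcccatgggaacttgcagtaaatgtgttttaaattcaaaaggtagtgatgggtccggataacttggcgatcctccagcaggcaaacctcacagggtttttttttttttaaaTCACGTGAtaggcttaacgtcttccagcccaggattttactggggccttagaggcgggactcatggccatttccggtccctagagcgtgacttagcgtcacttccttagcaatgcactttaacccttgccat
Atp6v1f, chr6:29467533-29467782, plus strand: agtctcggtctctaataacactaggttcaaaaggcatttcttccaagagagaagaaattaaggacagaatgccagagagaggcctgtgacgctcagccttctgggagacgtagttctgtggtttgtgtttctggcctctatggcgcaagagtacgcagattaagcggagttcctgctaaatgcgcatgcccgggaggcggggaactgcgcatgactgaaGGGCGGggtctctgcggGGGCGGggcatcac
Atp6v1g2, chr17:35236346-35236595, plus strand: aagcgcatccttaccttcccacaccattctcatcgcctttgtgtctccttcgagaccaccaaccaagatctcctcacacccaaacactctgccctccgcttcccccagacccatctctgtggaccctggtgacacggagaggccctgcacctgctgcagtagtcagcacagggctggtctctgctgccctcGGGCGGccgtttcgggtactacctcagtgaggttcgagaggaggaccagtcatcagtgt
The capitals in the Atp6v1a stretch mark TCACGTGA (chromosome 16, 44139384 to 44139391, 132 bases before the TSS at its far end). A peak covered it in every sort, at -72, -55 and -50 bp from the TSS in microglia, NeuN+ and Olig2+ nuclei. The capitals in the Atp6v1f and Atp6v1g2 stretches mark GGGCGG, present as 2 copies in Atp6v1f. A match is a description of the letters, not a bound site.

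In microglia, start sites of V1 genes were more open in SgshKO than in WT for 4 peaks and less open for 1, of 15. Over all start-site peaks in microglia, 8.59% were called higher and 1.2% lower. The 4 that rose belonged to Atp6v1b2, Atp6v1c1, Atp6v1f and Atp6v1g1, and the 1 that fell to Atp6v1g2. The median log2 change of the 15 was 0.54, beside 0.03 over all 23806 start-site peaks. Summed over the V1 start-site peaks, the WT libraries had 972 and 888 normalized tags and the SgshKO libraries 1396 and 1520. Tags at all start sites were higher in SgshKO as well (1967242 and 1738276 in WT, 2550421 and 2354670 in SgshKO libraries). Per 100000 of those, V1 start sites had 49.4 and 51.1 tags in WT and 54.8 and 64.5 in SgshKO libraries, a smaller gap that still did not overlap.

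**Figure D1:**
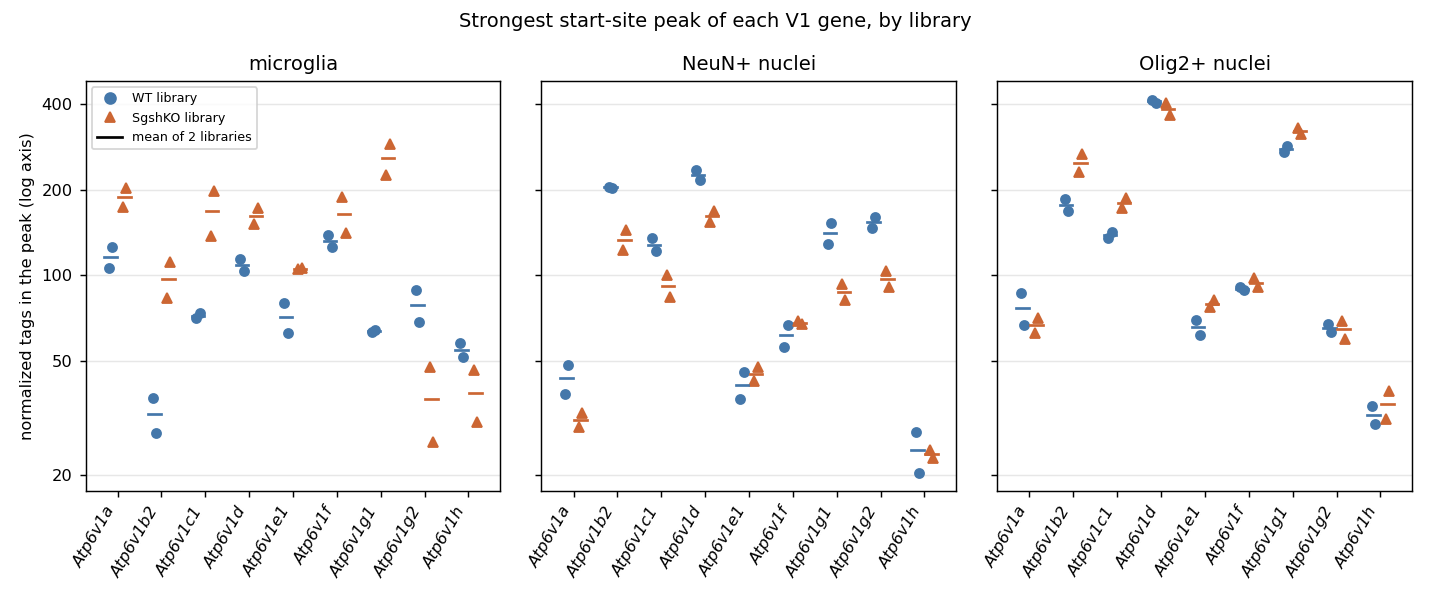
Normalized tags (log axis) in the strongest start-site peak of each V1 gene in each library, by sort. Circles are WT and triangles SgshKO libraries, and bars are means of 2. In microglia the SgshKO libraries of Atp6v1g1 (226 and 289) lie far above the WT libraries (63.1 and 64.4), while in NeuN+ nuclei those of Atp6v1b2, Atp6v1c1, Atp6v1d, Atp6v1g1 and Atp6v1g2 lie below the WT libraries.

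Among the genes of the ATP-hydrolysing ring, Atp6v1b2 encodes the B subunit found in most tissues, the brain included. Its start-site peak in microglia (chromosome 8, 69088609 to 69088848, -8 bp) had 37.2 and 28.0 tags in the WT and 83.1 and 111 in the SgshKO libraries. The groups did not overlap, and the log2 change was 1.55 ± 0.35 (SE, limma adjusted p = 0.00352). This peak, like the Atp6v1b2 start-site peaks of both sorts of nuclei, lies within the annotated gene Slc18a1 (chromosome 8, 69037708 to 69089238). It therefore cannot be assigned to 1 of the genes. The peak nearest to the Slc18a1 TSS (-168 bp) had 22.5 and 27.1 tags in WT and 32.0 and 12.1 in SgshKO libraries (adjusted p = 0.743). Atp6v1a encodes the catalytic A subunit. The strongest of its 2 start-site peaks in microglia (chromosome 16, 44138933 to 44139159, 213 bp) had 106 and 126 tags in WT and 174 and 202 in SgshKO libraries. Its libraries did not overlap either, but the log2 change of 0.69 ± 0.29 was not called (adjusted p = 0.139). The peak over the CLEAR core, at -72 bp, had 34.6 and 34.7 tags in WT and 47.6 and 53.9 in SgshKO libraries (log2 change 0.54 ± 0.36, adjusted p = 0.407). Both Atp6v1a peaks were annotated to the promoter of Naa50, an acetyltransferase gene 89 bp from the annotated Atp6v1a gene, so they cannot be assigned to 1 of the genes. The peak nearest to the Naa50 TSS itself (-6 bp) had 37.2 and 39.0 tags in WT and 60.6 and 108 in SgshKO libraries, with adjusted p = 0.0557.

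Of the shaft genes, Atp6v1f rose at 1 of its peaks and Atp6v1d did not pass the test. Atp6v1f encodes the F subunit, and its peak at -117 bp (chromosome 6, 29467542 to 29467790), over the sequence printed above, had 49.3 and 28.8 tags in WT and 84.8 and 91.0 in SgshKO libraries. It rose by 1.20 ± 0.35 on the log2 scale (adjusted p = 0.0271). The stronger Atp6v1f peak, in the intron at 365 bp, had 139 and 125 tags in WT and 189 and 141 in SgshKO libraries, and was not called (0.30 ± 0.29, adjusted p = 0.582). Atp6v1d encodes the D subunit. Its strongest start-site peak (chromosome 12, 78861620 to 78861847, -95 bp) had 114 and 103 tags in WT and 152 and 173 in SgshKO libraries (log2 change 0.57 ± 0.29, adjusted p = 0.242). That peak too was annotated to the promoter of a neighbour, Eif2s1, a translation initiation gene that lies 64 bp from the annotated Atp6v1d gene.

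Among the stalk genes, Atp6v1g1 changed most and Atp6v1g2 changed the other way. Both encode G subunits, Atp6v1g1 the form of most tissues and Atp6v1g2 a form enriched in neurons. The Atp6v1g1 peak (chromosome 4, 63544632 to 63544864, -17 bp) had 63.1 and 64.4 tags in WT and 226 and 289 in SgshKO libraries, 4.04-fold more on average (log2 change 1.99 ± 0.29, adjusted p = 2e-05). For Atp6v1g2, the peak at -122 bp (chromosome 17, 35236362 to 35236587) had 89.0 and 68.6 tags in WT and 47.6 and 26.0 in SgshKO libraries. It fell by 1.13 ± 0.36 on the log2 scale (adjusted p = 0.0463). The second Atp6v1g2 start site, with a peak at -12 bp, had 32.8 and 30.5 tags in WT and 22.5 and 17.6 in SgshKO libraries and was not called (adjusted p = 0.376). The annotated gene Nfkbil1 (chromosome 17, 35220175 to 35236481) overlaps the -122 bp peak in part and holds the -12 bp peak. These peaks therefore cannot be assigned to 1 of the genes. The peak nearest to the Nfkbil1 TSS (-23 bp) had 134 and 138 tags in WT and 151 and 139 in SgshKO libraries (adjusted p = 0.893). Atp6v1e1, which encodes the E subunit, had 80.4 and 62.7 tags in WT and 106 and 106 in SgshKO libraries at -75 bp (chromosome 6, 120822659 to 120822887). Its log2 change of 0.57 ± 0.31 was not called (adjusted p = 0.289).

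As to neuronal material in the microglial sort, start-site peaks were present there for 3 of 10 neuronal markers (not for Rbfox3, Snap25 or Syt1, among others). Their summed tags came to 280 and 320 in WT and 423 and 231 in SgshKO libraries, so the groups overlapped. Oligodendrocyte precursor markers had peaks for 2 of 5 genes and sums of 141 and 108 in WT and 59.7 and 55.7 in SgshKO libraries, lower as Atp6v1g2 was. Oligodendrocyte markers had peaks for 5 of 10 genes (not for Mag, Mobp or Sox10, among others) and sums of 340 and 308 in WT and 418 and 357 in SgshKO libraries, higher as the 4 called V1 increases were. The part of these in the V1 results was not tested.

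Of the genes at the joint with V0, Atp6v1c1 rose and Atp6v1h did not pass the test. Atp6v1c1 encodes the C subunit, which links V1 to V0. Its peak at -43 bp (chromosome 15, 38661753 to 38661970) had 70.9 and 73.7 tags in WT and 138 and 198 in SgshKO libraries (log2 change 1.18 ± 0.30, adjusted p = 0.0119). A weaker peak 374 bp into the gene had 19.0 and 15.3 tags in WT and 12.1 and 14.9 in SgshKO libraries (adjusted p = 0.733). Atp6v1h encodes the H subunit, which holds back ATP hydrolysis by free V1. At 44 bp (chromosome 1, 5082992 to 5083268) it had 57.9 and 51.7 tags in WT and 46.8 and 30.6 in SgshKO libraries (log2 change -0.52 ± 0.36, adjusted p = 0.422).

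Leaving out WT replicate 1 or WT replicate 2 left Atp6v1g1 as the only V1 start-site peak called in microglia (adjusted p = 0.00517 and 0.00884). Atp6v1g2 was also lost without SgshKO replicate 2 (adjusted p = 0.111), with a pseudocount of 0.5 (0.0521) and with DESeq2 (0.0737), and no alternative turned the direction of these 5 peaks. With edgeR the Atp6v1a peak at 213 bp was called too (adjusted p = 0.0365), and with the spread pooled over the 12 libraries, an alternative chosen after seeing the data, those of Atp6v1a (0.00754), Atp6v1d (0.00151) and Atp6v1e1 (0.0215) were.

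**Figure D2:**
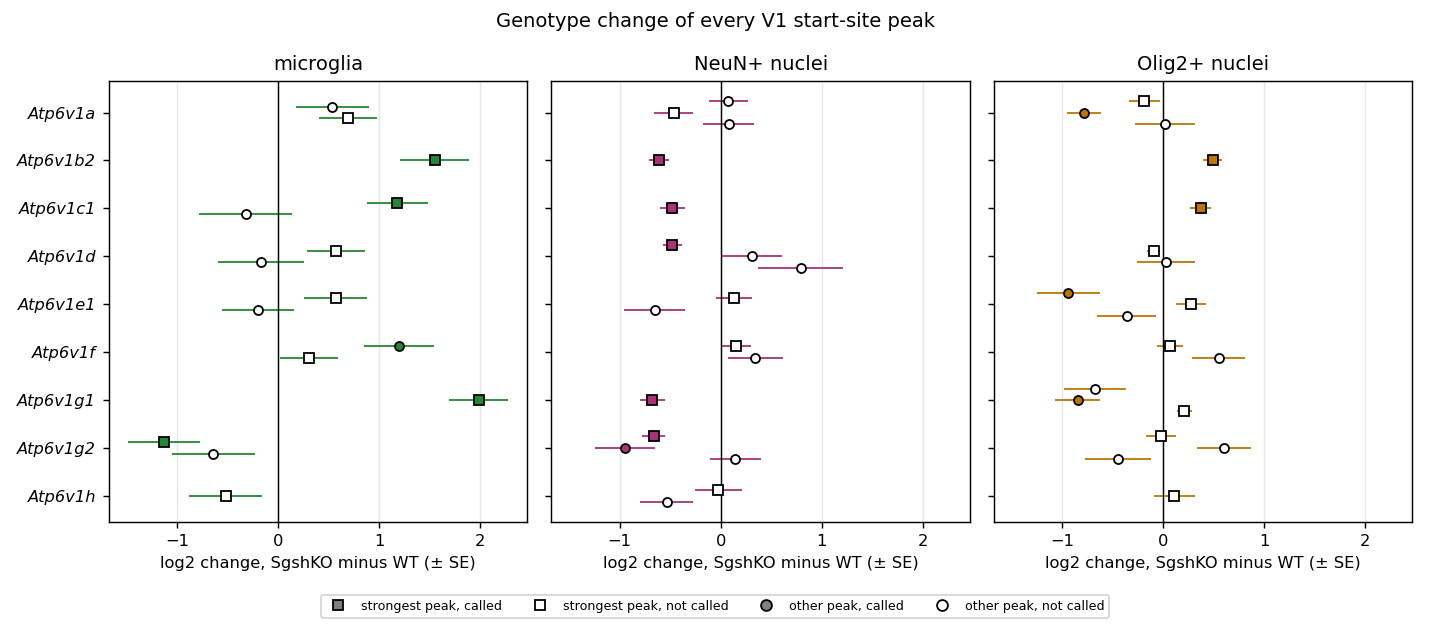
Log2 change (SgshKO minus WT, ± SE) of each V1 start-site peak by gene and sort. Squares are the strongest start-site peak of a gene, circles its other ones, and filled symbols are called at adjusted p under 0.05. The called peaks are mostly to the right of 0 in microglia (4 of 5), all to the left in NeuN+ nuclei (6 of 6) and on both sides in Olig2+ nuclei (2 and 3).

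In NeuN+ nuclei, 6 of 18 V1 start-site peaks were called lower in SgshKO and none higher, where 44.9% of all start-site peaks were lower and 1.74% higher. The median log2 change of the V1 peaks was -0.24, beside -0.53 over all 23397 start-site peaks. With libraries scaled to the reads in peaks, the V1 median was 0.05, and with quantile normalization 0.11. The summed V1 start-site tags came to 1158 and 1172 in WT and 872 and 876 in SgshKO libraries. Per 100000 tags at all start sites the WT NeuN+ libraries had 84.0 and 89.4 and the SgshKO libraries 94.2 and 96.1, so by that measure the order turned round. Summed tags at neuronal markers were also lower in SgshKO, with 1141 and 1029 in WT and 607 and 630 in SgshKO libraries, and 14 of the 28 peaks called lower. Marker lists of the other cell types with peaks in this sort were lower too, with no overlap: oligodendrocyte (179 and 155 to 85.9 and 88.2), oligodendrocyte precursor (83.9 and 98.3 to 62.1 and 50.2), astrocyte (199 and 184 to 130.5 and 132.7) and microglia (54.4 and 48.0 to 34.2 and 32.4). The part of these, or of the lower share of reads in peaks, in the V1 values was not tested.

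The peak of the B subunit gene Atp6v1b2 (chromosome 8, 69088554 to 69088809, -55 bp) had 205 and 202 tags in WT and 123 and 144 in SgshKO NeuN+ libraries. It fell by 0.61 ± 0.10 on the log2 scale (adjusted p = 0.000349). The Atp6v1d peak (chromosome 12, 78861605 to 78861816, -72 bp) had 235 and 217 tags in WT and 154 and 169 in SgshKO libraries (log2 change -0.48 ± 0.09, adjusted p = 0.00119). That of Atp6v1c1 (chromosome 15, 38661736 to 38661959, -57 bp) went from 135 and 122 to 101 and 83.8 tags (log2 change -0.48 ± 0.13, adjusted p = 0.00859). No pair of groups overlapped at these 3 peaks. The Atp6v1d peak was annotated to the promoter of Eif2s1 in this sort as well, so it cannot be assigned to 1 of the genes. The peak nearest to the Eif2s1 TSS (-40 bp) had 34.0 and 24.3 tags in WT and 35.6 and 35.55 in SgshKO libraries (adjusted p = 0.279). With quantile normalization the changes of Atp6v1d (0.09) and Atp6v1c1 (0.08) turned positive and were not called, and that of Atp6v1b2 was -0.05 (adjusted p = 0.737).

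Both G subunit genes fell in NeuN+ nuclei. The Atp6v1g1 peak (chromosome 4, 63544662 to 63544868, 0 bp) had 129 and 152 tags in WT and 93.5 and 81.9 in SgshKO libraries (log2 change -0.68 ± 0.12, adjusted p = 0.000743). The main Atp6v1g2 peak (chromosome 17, 35236446 to 35236751, 2 bp) had 147 and 160.4 tags in WT and 103 and 90.8 in SgshKO libraries (log2 change -0.66 ± 0.12, adjusted p = 0.000462). At the other Atp6v1g2 start site (chromosome 17, 35234911 to 35235146, 18 bp) there were 18.7 and 15.8 tags in WT and 6.98 and 10.2 in SgshKO libraries (log2 change -0.95 ± 0.29, adjusted p = 0.0218). The WT libraries were above the SgshKO libraries at each of these 3 peaks. With quantile normalization the main peaks changed by -0.12 (Atp6v1g1) and -0.09 (Atp6v1g2) and were not called. Nfkbil1 overlaps both Atp6v1g2 peaks in this sort as well. The peak nearest to its TSS (-13 bp) had 56.65 and 60.4 tags in WT and 48.2 and 36.8 in SgshKO libraries (adjusted p = 0.0499).

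The remaining 4 genes had no called start-site peak in NeuN+ nuclei. The strongest Atp6v1a peak (223 bp) had 38.5 and 48.6 tags in WT and 29.3 and 33.0 in SgshKO libraries (log2 change -0.46 ± 0.19, adjusted p = 0.0749). At -55 bp, over its CLEAR core, Atp6v1a had 29.5 and 31.1 tags in WT and 32.1 and 31.8 in SgshKO libraries (log2 change 0.08 ± 0.20). Both peaks were annotated to the promoter of Naa50. The peak nearest to the Naa50 TSS (-56 bp) had 128 and 143 tags in WT and 87.25 and 78.1 in SgshKO libraries (log2 change -0.71 ± 0.12, adjusted p = 0.000434). The Atp6v1f peak (-78 bp) had 56.1 and 67.2 tags in WT and 69.1 and 67.3 in SgshKO libraries, a log2 change of 0.15 ± 0.15 (adjusted p = 0.461). With quantile normalization it was the only V1 start-site peak called in this sort, as higher (0.60, adjusted p = 0.0299). At -93 bp Atp6v1e1 had 36.8 and 45.7 tags in WT and 42.6 and 47.6 in SgshKO libraries, and at 34 bp Atp6v1h had 28.3 and 20.3 in WT and 24.4 and 22.9 in SgshKO libraries. The groups overlapped for Atp6v1e1 and Atp6v1h. Without SgshKO replicate 1 or SgshKO replicate 2, none of the 107627 peaks of the NeuN+ table was called by limma, while 33265 and 32556 had an unadjusted p under 0.05. Leaving out WT replicate 1 ended the calls of Atp6v1c1 (adjusted p = 0.127) and of Atp6v1g2 at 18 bp (0.165), and leaving out WT replicate 2 the latter (0.0743). DESeq2 called none of the 18 peaks, and edgeR 4.

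In Olig2+ nuclei, 2 of 19 V1 start-site peaks were called higher and 3 lower, where 12.7% of all start-site peaks were higher and 7.56% lower. The count called higher is near the share of the whole table, and the count called lower lies above it, though on 19 peaks only. The V1 median of 0.02 was near that of all 20120 start-site peaks (0.05). The 2 that rose were the strongest peaks of Atp6v1b2 and Atp6v1c1. The 3 that fell were weaker peaks of Atp6v1a, Atp6v1e1 and Atp6v1g1. Summed V1 start-site tags came to 1577 and 1525 in WT and 1636 and 1644 in SgshKO libraries. Per 100000 tags at all start sites the groups overlapped (100.6 and 98.6 in WT, 102.4 and 99.5 in SgshKO libraries). Summed tags at oligodendrocyte markers were lower in SgshKO (3710 and 3683 in WT, 3111 and 3099 in SgshKO libraries) and those at oligodendrocyte precursor markers higher (112 and 103 against 144 and 148), as were those at microglial markers with a peak (2 of 10 genes; 240.2 and 233 against 271 and 284), and their part in the V1 values was not tested.

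The Atp6v1b2 peak (chromosome 8, 69088580 to 69088809, -42 bp) had 186 and 168 tags in WT and 231 and 267 in SgshKO Olig2+ libraries (log2 change 0.49 ± 0.10, adjusted p = 0.00047). It was called without each library in turn, with adjusted p from 4.99e-06 to 0.0289. The Atp6v1c1 peak (chromosome 15, 38661736 to 38661982, -45 bp) had 135 and 142 tags in WT and 173 and 187 in SgshKO libraries (log2 change 0.37 ± 0.10, adjusted p = 0.0107). It was not called without WT replicate 1 (adjusted p = 0.12), WT replicate 2 (0.0571) or SgshKO replicate 2 (0.0589). With the pooled spread, neither Atp6v1b2 (adjusted p = 0.0935) nor Atp6v1c1 (0.186) was called in Olig2+ nuclei.

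At the Atp6v1a peak 212 bp from the TSS (chromosome 16, 44138934 to 44139160) there were 75.7 and 62.4 tags in WT and 35.7 and 43.9 in SgshKO libraries (log2 change -0.78 ± 0.17, adjusted p = 0.00176). Omitting WT replicate 1 ended that call (adjusted p = 0.0898). The neighbouring Atp6v1a peak over the CLEAR core (-50 bp) had 86.6 and 67.0 tags in WT and 62.7 and 71.1 in SgshKO libraries, which overlapped (adjusted p = 0.403). Both Atp6v1a peaks were annotated to the promoter of Naa50, so they cannot be assigned to 1 of the genes. The peak nearest to the Naa50 TSS (-50 bp) had 230 and 208 tags in WT and 224 and 246 in SgshKO libraries (adjusted p = 0.436). Atp6v1g1 had 33.2 and 47.6 tags in WT and 19.7 and 23.9 in SgshKO libraries at -504 bp (log2 change -0.84 ± 0.22, adjusted p = 0.00756), and omitting WT replicate 2 ended the call (adjusted p = 0.212). Its main peak at -57 bp lay above it in every library, with 271 and 285 tags in WT and 329 and 314 in SgshKO libraries, and missed the threshold (log2 change 0.21 ± 0.08, adjusted p = 0.0504, but 0.0055 with edgeR). The Atp6v1e1 peak at -703 bp had 14.5 and 16.9 tags in WT and 9.84 and 5.98 in SgshKO libraries (log2 change -0.94 ± 0.32, adjusted p = 0.0346), and leaving out either WT replicate or SgshKO replicate 2 ended the call (adjusted p = 0.115 to 0.218), as did edgeR (0.0512) and quantile normalization (0.072). DESeq2 called neither Atp6v1a (0.0646) nor the -504 bp peak of Atp6v1g1 (0.145).

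Besides those of Atp6v1a and Atp6v1g1, the strongest start-site peaks of 5 genes in Olig2+ nuclei were not called. At -94 bp Atp6v1e1 had 69.5 and 61.9 tags in WT and 77.5 and 81.8 in SgshKO libraries (log2 change 0.28 ± 0.15, adjusted p = 0.177). At -66 bp Atp6v1d, the most open V1 start site of this sort, had 414 and 404 tags in WT and 401 and 365 in SgshKO libraries (log2 change -0.10 ± 0.07, adjusted p = 0.343). Atp6v1f (-94 bp) had 90.8 and 89.0 tags in WT and 97.8 and 91.1 in SgshKO libraries. Atp6v1g2 (-57 bp) had 67.4 and 63.4 in WT and 69.5 and 59.8 in SgshKO libraries, and Atp6v1h (37 bp) had 34.8 and 30.2 in WT and 31.4 and 39.2 in SgshKO libraries. For Atp6v1g2 and Atp6v1h the groups overlapped, and the log2 changes were -0.02 ± 0.15 and 0.11 ± 0.20.

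Whether the genotype change itself differed between sorts was tested on 12 V1 start-site peaks, at least 1 for each of the 9 genes, that overlapped one-to-one in the 3 tables (by at least 50% of each peak). The 12 libraries entered 1 limma model over 16761 such peaks. That model takes 1 spread per peak from all 12 libraries. Its SEs and p-values therefore do not allow for a wider spread in 1 sort. For Atp6v1g1 the SE of the difference between microglia and NeuN+ nuclei was 0.21, below that of the microglial change alone (0.29). For Atp6v1d the SE of the difference between microglia and Olig2+ nuclei was 0.19, also below that of the microglial change alone (0.29). Between microglia and NeuN+ nuclei the change differed for 6 of the 12, where 55.9% of 10516 shared start-site peaks differed in either direction. Between microglia and Olig2+ nuclei it differed for 7 of 12 (27.9% of all) and between NeuN+ and Olig2+ nuclei for 4 of 12 (42.0% of all). The 3 tests use the same libraries and are not independent.

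**Figure D3:**
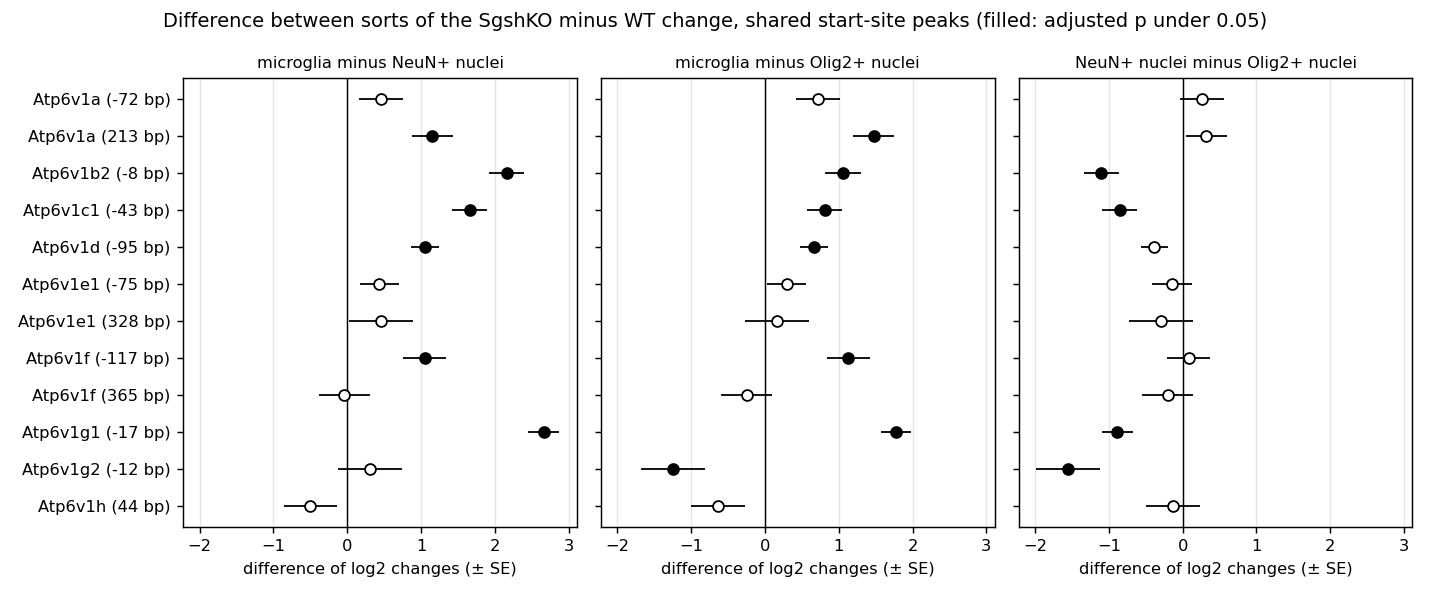
Difference between 2 sorts in the log2 change (SgshKO minus WT, ± SE) at the 12 shared V1 start-site peaks, named by gene and by distance to the TSS in microglia. Filled points have an adjusted p under 0.05. The largest difference is that of Atp6v1g1 between microglia and NeuN+ nuclei (2.66), and Atp6v1g2 is the only gene called to the left of 0 between microglia and Olig2+ nuclei (-1.24).

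Atp6v1g1 had the largest difference, 2.66 ± 0.21 on the log2 scale between microglia and NeuN+ nuclei (adjusted p = 1.24e-09) and 1.78 ± 0.21 between microglia and Olig2+ nuclei (adjusted p = 1.99e-06). For Atp6v1b2 these differences were 2.16 ± 0.24 (adjusted p = 1.48e-07) and 1.06 ± 0.24 (adjusted p = 0.00253), and for Atp6v1c1 1.66 ± 0.24 (adjusted p = 4.12e-06) and 0.81 ± 0.24 (adjusted p = 0.0157). The changes of these 3 genes also differed between both sorts of nuclei, by -0.89 ± 0.21 for Atp6v1g1, -1.10 ± 0.24 for Atp6v1b2 and -0.85 ± 0.24 for Atp6v1c1 (adjusted p = 0.00299, 0.0018 and 0.00857). Atp6v1a at 213 bp, Atp6v1d and the -117 bp peak of Atp6v1f had a higher log2 change in microglia than in each sort of nuclei, by 0.67 to 1.47. For Atp6v1e1, Atp6v1h, the intronic Atp6v1f peak and the Atp6v1a peak over the CLEAR core, no difference passed. With quantile normalization 3 of 12 peaks differed between microglia and NeuN+ nuclei, 5 of 12 between microglia and Olig2+ nuclei, and 1 of 12 between the sorts of nuclei.

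In WT libraries the order of V1 start sites differed between sorts. Levels are compared here as normalized tags per 100 bp of the strongest start-site peak, since peak widths differ. In microglia Atp6v1a (51.2 ± 6.2), Atp6v1d (47.7 ± 3.3) and Atp6v1f (46.4 ± 3.4) were highest and did not differ beyond their spread. Atp6v1g2 (34.9 ± 6.4), Atp6v1c1 (33.2 ± 0.92), Atp6v1e1 (31.2 ± 5.5) and Atp6v1g1 (27.4 ± 0.39) followed, the first 3 within their spread of each other. The WT libraries of Atp6v1e1 (35.1 and 27.4) and Atp6v1g1 (27.1 and 27.6) overlapped as well. Atp6v1h (19.8 ± 1.6) and Atp6v1b2 (13.6 ± 2.7) were lowest. Here each ± is an SD over 2 libraries.

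In NeuN+ nuclei the WT order was Atp6v1d (106 ± 5.9), Atp6v1b2 (79.5 ± 0.79), Atp6v1g1 (68.0 ± 8.0), Atp6v1c1 (57.3 ± 4.1) and Atp6v1g2 (50.3 ± 3.0), with a gap to Atp6v1f (22.7 and 27.2 in its 2 libraries), Atp6v1a (17.9 ± 2.9), Atp6v1e1 (15.9 ± 2.4) and Atp6v1h (9.11 ± 2.1). The ranges of the WT libraries of Atp6v1a and Atp6v1e1 overlapped. In Olig2+ nuclei it was Atp6v1d (200 ± 3.4), Atp6v1g1 (89.6 ± 3.2), Atp6v1b2 (76.8 ± 5.5) and Atp6v1c1 (56.1 ± 2.1), followed by Atp6v1f (41.6 ± 0.59), Atp6v1a (37.5 ± 6.8), Atp6v1g2 (28.0 ± 1.2), Atp6v1e1 (25.6 ± 2.1) and Atp6v1h (11.0 ± 1.1). The WT libraries of Atp6v1a spanned those of Atp6v1f, and Atp6v1g2 and Atp6v1e1 differed by about their spread.

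Atp6v1b2 changed place most between sorts. Among all start-site peaks of a table, ranked by WT tags per 100 bp, it stood at percentile 38.2 for microglia, 94.2 for NeuN+ and 87.6 for Olig2+ nuclei. Atp6v1d was high in every sort (percentiles 80.7, 97.4 and 98.7) and Atp6v1h near the middle (51.6, 45.0 and 46.4). Atp6v1g2, the neuron-enriched G subunit gene, stood at percentiles 71.2, 86.4 and 66.7. In SgshKO microglia, Atp6v1g1 had 97.0 and 124 tags per 100 bp, the highest mean of the 9.

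Over the 12 libraries, the start-site peaks whose log2 levels were most like those of Atp6v1g1, of 10245 candidates, were those of Nadk (Pearson r = 0.986), U2af1 (0.985) and Npat (0.982). Among V1 genes the nearest to Atp6v1g1 was Atp6v1c1 (r = 0.942, rank 120). For Atp6v1b2 the 3 most alike were Ikbip (0.988), Vps26a (0.98) and Sh3gl1 (0.979). The 12 libraries are not independent points, as those of a sort share their preparation and table, and these correlations are given with no test.

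Distal peaks were assigned by nearest TSS, and 28 lay in the microglial table, 22 in that of NeuN+ and 8 in that of Olig2+ nuclei. In microglia 1 of 28 was called higher and none lower, near the 3.8% higher and 2.72% lower of all distal peaks. The called peak lies in intron 7 of Atp6v1h (chromosome 1, 5106695 to 5106899, 23711 bp from the TSS) and had 0.86 and 2.54 tags in WT and 16.5 and 15.8 in SgshKO libraries. That was 4 reads in WT and 36 in SgshKO, a ratio of 9.42 per sequenced read with an exact 95% interval of 3.38 to 36.5 that covers counting error only. A peak with so few WT reads may have entered the merged peak set through the SgshKO libraries alone, and it is named because it was called. Neither the interval nor the limma test allows for that choice. The log2 change was 2.74 ± 0.54 (limma adjusted p = 0.00107), and omitting WT replicate 1 ended the call (adjusted p = 0.176). The Atp6v1h start site in the same cells had a log2 change of -0.52. The distal peak with the highest mean over all 4 libraries, at -82727 bp from Atp6v1b2 (chromosome 8, 69005907 to 69006112), had 103 and 69.5 tags in WT and 116 and 76.1 in SgshKO libraries, which overlapped. In the WT libraries alone the peak at -12605 bp from Atp6v1g2 was stronger (105 and 86.4), and in the SgshKO libraries that at 19286 bp from Atp6v1a (103 and 118).

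**Figure D4:**
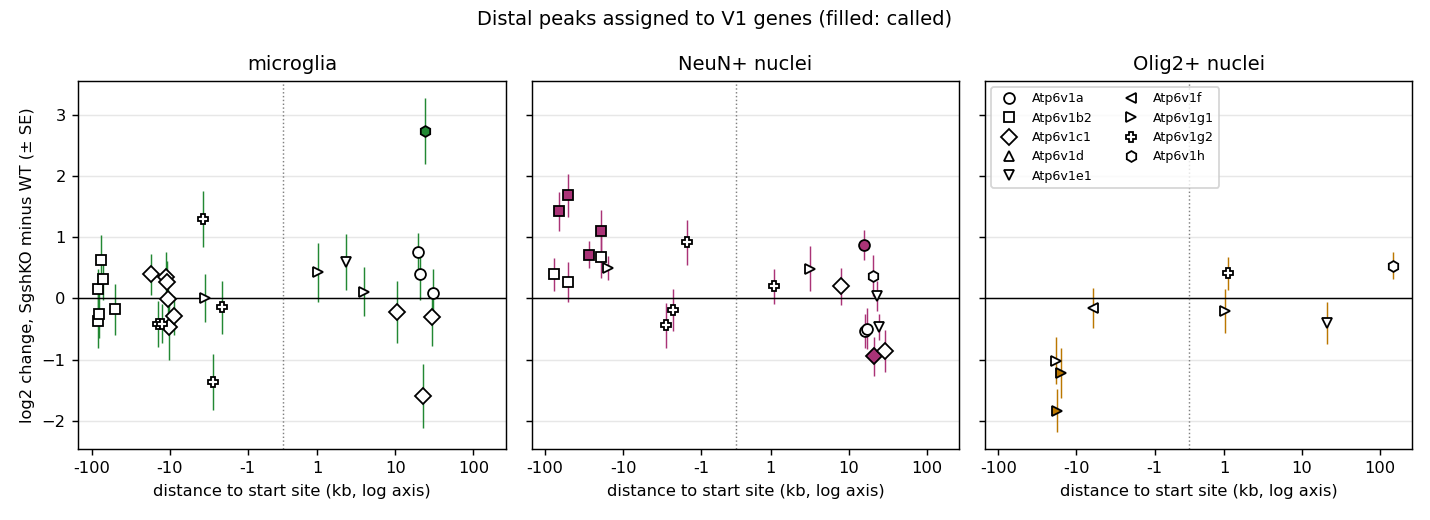
Log2 change (SgshKO minus WT, ± SE) of V1 distal peaks against distance to the TSS in kb (log axis, linear within 1 kb of 0), with 1 marker shape per gene and called peaks filled. The filled squares in NeuN+ nuclei are 4 Atp6v1b2 peaks at -65306 to -18982 bp from its TSS, all above 0. The filled triangles in Olig2+ nuclei are 2 Atp6v1g1 peaks, both below 0.

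In NeuN+ nuclei 5 of 22 distal peaks were called higher and 1 lower, where 12.6% of all distal peaks were higher and 12.6% lower. Of the 5, 4 lie before Atp6v1b2 on chromosome 8, at -65306, -50870, -27599 and -18982 bp, and 3 of those are inside Slc18a1, a vesicular amine transporter gene that overlaps the start of Atp6v1b2. The most distant (69023318 to 69023542, intergenic) had 6.80 and 4.52 tags in WT and 18.9 and 14.6 in SgshKO libraries (log2 change 1.42 ± 0.32, adjusted p = 0.00314). The peak in the last exon of Slc18a1 (69037740 to 69037992) had 2.83 and 2.82 tags in WT and 11.9 and 10.8 in SgshKO libraries (log2 change 1.69 ± 0.35, adjusted p = 0.00193). With 5 and 5 reads in WT, it too may have entered the peak set through the SgshKO libraries alone, which the test does not allow for. The peaks in Slc18a1 introns 9 and 5 changed by 0.72 ± 0.22 (adjusted p = 0.0192) and 1.10 ± 0.35 (adjusted p = 0.0244). The other 3 distal peaks of Atp6v1b2 in this sort, at -75970, -50228 and -19313 bp, were not called (adjusted p = 0.269, 0.545 and 0.137). So with the deposited scaling 4 of the 7 distal peaks assigned to Atp6v1b2 were called higher in SgshKO and its start-site peak lower. As Slc18a1 overlaps the start of Atp6v1b2, assignment by nearest TSS cannot tell which gene these distal peaks belong to.

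The fifth peak called higher in NeuN+ nuclei lies in intron 1 of Atp6v1a (chromosome 16, 44123380 to 44123623, 15758 bp) and had 13.6 and 16.4 tags in WT and 24.4 and 32.4 in SgshKO libraries (log2 change 0.87 ± 0.24, adjusted p = 0.0123). The 1 called lower lies in intron 7 of Atp6v1c1 (chromosome 15, 38682646 to 38682847, 20842 bp) and had 11.9 and 14.1 tags in WT and 5.58 and 6.98 in SgshKO libraries (log2 change -0.95 ± 0.32, adjusted p = 0.0305). Under quantile normalization the 5 increases were still called and the Atp6v1c1 decrease was not (adjusted p = 0.068). Leaving out WT replicate 1 ended 3 of the 5 called increases, at Atp6v1a and at -27599 and -18982 bp from Atp6v1b2 (adjusted p = 0.123 to 0.182), and the Atp6v1c1 decrease (0.103). Leaving out WT replicate 2 ended the one at -27599 bp (0.0791) and the Atp6v1c1 decrease (0.182). Without either SgshKO replicate all 6 calls were lost, as in the whole table, and DESeq2 called none of them (adjusted p = 0.0585 to 0.563). The distal peak with the highest mean over all 4 libraries, at -15742 bp from Atp6v1g1 (chromosome 4, 63528913 to 63529134), had 25.5 and 33.3 tags in WT and 44.0 and 39.4 in SgshKO libraries and was not called (adjusted p = 0.0635), although edgeR called it (0.00618), as limma did with each of the other 3 scalings (0.00464 to 0.0332). In the WT libraries alone the peak at 24427 bp from Atp6v1e1 was stronger (40.2 and 31.6).

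In Olig2+ nuclei 2 of 8 distal peaks were called lower and none higher, where 13.0% of all distal peaks were lower and 6.7% higher. Both lie in the intergenic stretch before Atp6v1g1 on chromosome 4. The SgshKO libraries had 10 and 5 reads at -17638 bp and 7 and 3 at -15641 bp. Both peaks may have entered the merged peak set through the WT libraries alone, which the test does not allow for. The peak at -17638 bp (63527025 to 63527229) had 13.5 and 26.1 tags in WT and 6.15 and 3.32 in SgshKO libraries (log2 change -1.83 ± 0.35, adjusted p = 0.000421), and was not called without WT replicate 2 (adjusted p = 0.0866). The peak at -15641 bp (63529020 to 63529229) had 11.9 and 5.62 tags in WT and 4.30 and 1.99 in SgshKO libraries (log2 change -1.22 ± 0.41, adjusted p = 0.0357). That peak held 34 reads in WT and 10 in SgshKO, a ratio of 0.365 per sequenced read. The exact 95% interval was 0.161 to 0.755 and covers counting error only. It overlaps the NeuN+ peak at -15742 bp, where the SgshKO libraries were the higher ones. Leaving out either WT replicate or SgshKO replicate 2 ended the call of the -15641 bp peak, as did quantile normalization (adjusted p = 0.139). The strongest distal peak, 145962 bp from Atp6v1h, had 23.3 and 19.9 tags in WT and 34.4 and 29.3 in SgshKO libraries (adjusted p = 0.0849).

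The rest of the pump was counted from lists chosen with earlier results of these data known. The V0 sector is the part in the membrane that carries the protons. In microglia 2 of its 22 start-site peaks were called higher and none lower, in NeuN+ nuclei 10 of 14 were lower and none higher, and in Olig2+ nuclei none of 21 was called by limma, edgeR or DESeq2, nor had an unadjusted p under 0.05 in limma. The median log2 changes were 0.35, -0.64 and -0.03. Over all start-site peaks, 8.59% were called higher in microglia, a share near that of V0, and 44.9% lower in NeuN+ nuclei, and the medians were 0.03, -0.53 and 0.05. In microglia those called were at Atp6v0d1, the subunit that couples V0 to the shaft (215 and 169 tags in WT, 359 and 409 in SgshKO libraries), and at Tcirg1, an a subunit form (143 and 129 in WT, 281 and 245 in SgshKO libraries). In NeuN+ nuclei the V0 start-site peaks with the smallest p were those of Atp6v0b (log2 change -0.84 ± 0.13), Atp6v0a2 (-0.80 ± 0.15) and Atp6v0e (-1.09 ± 0.22).

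Accessory and assembly genes had 2 of 14 start-site peaks called higher (microglia), 7 of 12 lower (NeuN+) and 1 of 11 higher (Olig2+), with none called in the other direction, beside 8.59%, 44.9% and 12.7% of all start-site peaks. Atp6ap2, an accessory subunit, had 197 and 173 tags in WT and 378 and 362 in SgshKO microglia. In NeuN+ nuclei Rogdi, of the complex that reassembles the pump, went from 243 and 248 to 143 and 144 tags. Dmxl2, of the same complex, rose in Olig2+ nuclei from 84.0 and 86.9 to 117 and 129 tags. The V1 isoform genes of kidney and other tissues, Atp6v1b1, Atp6v1c2, Atp6v1e2 and Atp6v1g3, had no start-site peak in any table. Distal peaks near these isoform genes were called for 2 of 17 in microglia (both higher, near Atp6v1g3, beside 3.8% of all distal peaks), 2 of 6 in NeuN+ nuclei (1 higher and 1 lower, beside 12.6% each way) and none of 3 in Olig2+ nuclei (1 had an unadjusted p under 0.05 in limma, and neither edgeR nor DESeq2 called any).

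**Figure D5:**
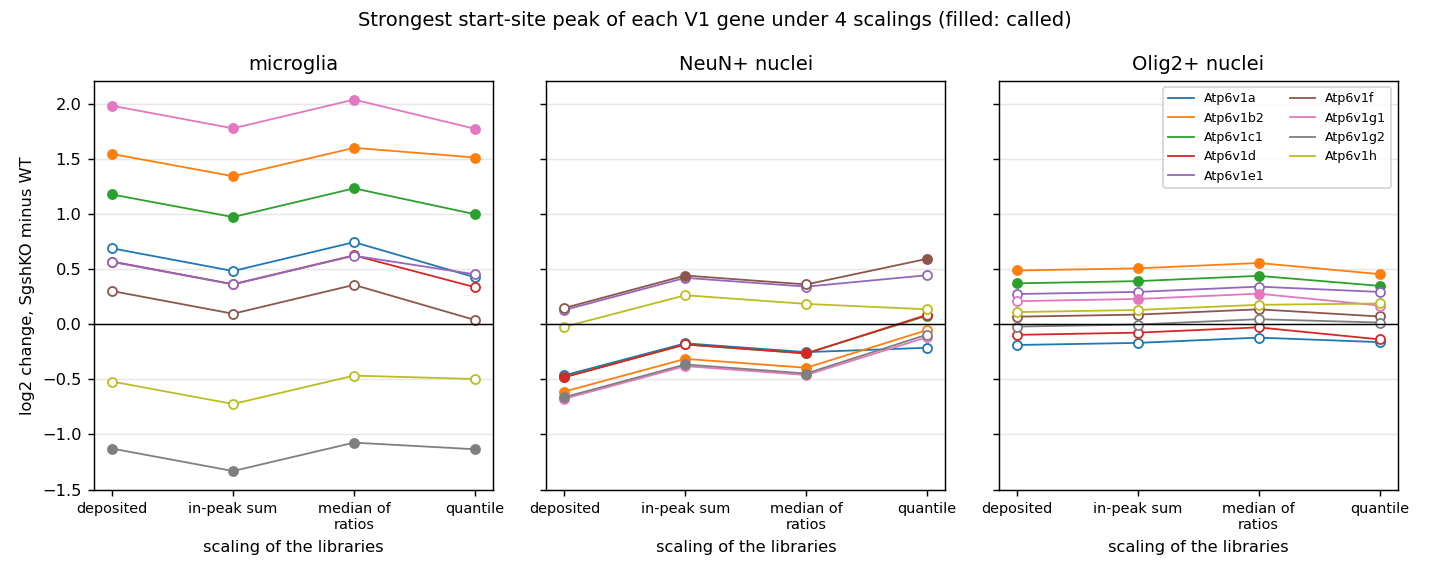
Log2 change (SgshKO minus WT) of the strongest start-site peak of each V1 gene with the deposited scaling, scaling to the tags in peaks, median-of-ratios scaling and quantile normalization. Filled points are called at adjusted p under 0.05. In microglia the lines stay on their side of 0, with Atp6v1f reaching 0.04, while in NeuN+ nuclei those of Atp6v1c1 and Atp6v1d cross 0 under quantile normalization (0.08 and 0.09) and that of Atp6v1h crosses it under each of the other 3 scalings.

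The plot of changes by scaling shows that signs of called V1 start-site peaks turned in NeuN+ nuclei and not in microglia. In NeuN+ nuclei the median log2 change over all 107627 peaks was -0.23 with the deposited scaling, 0.05 with scaling to the tags in peaks and -0.03 with median-of-ratios scaling. In microglia these medians were -0.08, -0.28 and -0.03, and the median of the V1 start-site peaks stayed positive (0.54, 0.33 and 0.59). With scaling to the tags in peaks, Atp6v1b2 (-0.31), Atp6v1g1 (-0.38) and the main Atp6v1g2 peak (-0.36) were still called lower in NeuN+ nuclei, Atp6v1c1, Atp6v1d and the Atp6v1g2 peak at 18 bp were not, and Atp6v1f was called higher (0.44, adjusted p = 0.0294).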

How the data were processed

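Tag counts per peak were deposited by the authors as a normalized signal: per the file headers, each column holds tags scaled to 10000000 per library. The submitters' processing notes name Bowtie2, HOMER and the mm10 build, with no role or version. The peak caller, any shift of reads and the treatment of duplicates were not given in the sources used here. From that deposited signal whole reads were recovered, 100% of values lying within 0.01 of a whole number. Each table was fitted alone with limma 3.58.1 in R 4.3.3 (lmFit, eBayes with trend, two-sided, pseudocount 1, no filter), with Benjamini-Hochberg adjustment over all its peaks. A change on this scale understates that of low peaks. The fits were tested on simulated data. Shared peaks were found with bedtools 2.31.1 (reciprocal overlap of 50%). Alternatives were pseudocounts of 0.5 and 5, a filter on the lowest 25% of peaks, 3 other scalings, count tests on those reads (edgeR 4.0.16, DESeq2 1.42.0), a threshold of 0.1, a window of 500 bp, a replicate block and leaving out each library. Replicate numbers come from the labels, which name no batch. The members, gene lists, motifs and tests were chosen with earlier results of these data known. Named were the strongest start-site peak of each gene and table, other called start-site peaks, called distal peaks (6 at most per table) and the strongest distal one. Peaks named beyond this rule, such as those over the Atp6v1a motif, were chosen after their values were seen.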

Additional observations from a re-analysis of the deposited data

Results flagged for a closer look

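By the limma model of all 12 libraries, with 1 spread per peak, the change between genotypes differed between sorts for 17 combinations. These came from 12 shared V1 start-site peaks and 3 pairs of sorts. By pair, in the order below, they were 6, 7 and 4 of 12. Of all shared start-site peaks, 55.9, 27.9 and 42.0% differed, so the first and last counts do not exceed the share over all. Microglia minus NeuN+ nuclei gave differences of log2 change of 1.15 (Atp6v1a at 213 bp), 1.05 (Atp6v1d), 1.66 (Atp6v1c1), 2.66 (Atp6v1g1), 1.05 (Atp6v1f at -117 bp) and 2.16 (Atp6v1b2). Microglia minus Olig2+ nuclei gave 1.47 (Atp6v1a at 213 bp), 0.67 (Atp6v1d), 0.81 (Atp6v1c1), 1.78 (Atp6v1g1), 1.13 (Atp6v1f at -117 bp), 1.06 (Atp6v1b2) and -1.24 (Atp6v1g2 at -12 bp). NeuN+ minus Olig2+ nuclei gave -0.85 (Atp6v1c1), -0.89 (Atp6v1g1), -1.10 (Atp6v1b2) and -1.55 (Atp6v1g2 at 18 bp in NeuN+ nuclei). The peaks matched for Atp6v1g2 were unlike in width and place: 243 bp at -12 bp in microglia, 235 bp at 18 bp in NeuN+ and 457 bp at 109 bp in Olig2+ nuclei. At the Atp6v1g2 peak neither genotype change was called in microglia or Olig2+ nuclei taken alone (-0.64 and 0.60), and the WT libraries had 11.9 and 14.8 tags in Olig2+ nuclei. That peak lies within the annotated gene Nfkbil1, so it cannot be assigned to 1 of the genes.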

How the results depend on the processing

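With 2 libraries per group, the counts of called V1 peaks moved with single libraries. In microglia the 5 start-site calls fell to 1 without either WT replicate, and over all omissions the count ran from 1 to 6. The 1 distal call became 3 with a pseudocount of 5, scaling to the tags in peaks or quantile normalization, 5 with median-of-ratios scaling, edgeR or the replicate block, 4 at a threshold of 0.1, and 0 with DESeq2 or without the lowest 25% of peaks, whose filter removes that peak. Omissions gave 0 to 6. In NeuN+ nuclei the 6 start-site calls became 1 with quantile normalization (higher) and 0 with DESeq2, which called 4900 peaks of the table, and the 6 distal calls became 0 with DESeq2. Omissions gave 0 to 5 and 0 to 4. In Olig2+ nuclei the 5 start-site calls became 2 with DESeq2 and 3 with a window of 500 bp, and omissions gave 2 to 5. The 2 distal calls became 1 without the lowest 25% of peaks or with quantile normalization, 0 with DESeq2, and 4 at a threshold of 0.1 or with a window of 500 bp, and omissions gave 0 to 2. Of the differences between sorts, the 6 of microglia against NeuN+ nuclei became 3 with quantile normalization. The 7 of microglia against Olig2+ nuclei became 5 with each of the 3 other scalings. They became 8 at a threshold of 0.1 or with peaks matched by an overlap of at least 1 bp. The 4 of NeuN+ against Olig2+ nuclei became 1 with scaling to the tags in peaks or quantile normalization and 2 with median-of-ratios scaling, and omissions gave 2 to 4. DESeq2 gave no adjusted p to the called distal peaks of microglia and Olig2+ nuclei or to the Atp6v1e1 peak at -703 bp, so these are not lost calls. For the other changes, except the filter, the cause was not tested.

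Signs turned for Atp6v1c1 (0.080) and Atp6v1d (0.088) in NeuN+ nuclei with quantile normalization, and otherwise for uncalled peaks near 0. Atp6v1h in NeuN+ nuclei (-0.02) became 0.265, 0.186 and 0.137 with scaling to the tags in peaks, median-of-ratios scaling and quantile normalization, 0.172 and 0.176 with edgeR and DESeq2, 0.208 without WT replicate 1 and 0.024 without SgshKO replicate 2, with or without the spread pooled over the 12 libraries (an alternative chosen after seeing the data). Omissions gave it -0.251 to 0.208. Atp6v1g2 in Olig2+ nuclei (-0.02) became 0.047, 0.017, 0.054 and 0.054 with median-of-ratios scaling, quantile normalization, edgeR and DESeq2, 0.024 without WT replicate 1 and 0.086 without SgshKO replicate 2 (omissions gave -0.126 to 0.086). Atp6v1e1 in NeuN+ nuclei became -0.022 without WT replicate 1 (omissions gave -0.022 to 0.283), and Atp6v1h in Olig2+ nuclei -0.045 without SgshKO replicate 2 (omissions gave -0.045 to 0.269), in both cases also with the pooled spread. The peak at -82727 bp from Atp6v1b2 in microglia became -0.054 with scaling to the tags in peaks, -0.128 without WT replicate 2 and -0.149 without SgshKO replicate 1 (omissions gave -0.149 to 0.452). Of 44 named peaks, 11 kept direction and call at the threshold of 0.05 under the other pseudocounts, the filter, the other scalings, edgeR, DESeq2, the replicate block and all omissions, wherever these gave a value.

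Peak by peak, WT and SgshKO differences between replicates 1 and 2 hardly correlated (0.042, 0.004 and 0.001 in microglia, NeuN+ and Olig2+ nuclei). Such a correlation cannot see a shift shared by all peaks, so it does not settle whether same-numbered libraries are paired. In microglia replicate 1 had the larger share of reads in peaks in WT (55.75 against 48.68%) and in SgshKO (67.44 against 53.65%). The replicate block raised the calls over all microglial peaks from 6765 to 14489. With the replicate block, 42 of the named peaks kept their call and 2 more were called. Distal peaks with a few reads, such as that in Atp6v1h, are the least precise.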
